A study of Monodelphis domestica with 2 samples.

Results

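The genes described here encode the neuropeptides and the peptide-binding protein most used to tell cortical interneurons apart: SST, NPY, PENK and CRHBP, with VIP, CCK, TAC1, CRH, PDYN and PNOC added where the gene table gave their symbol. A symbol was given for 9 of the 10 genes, out of 11590 genes with a symbol among 30800 in the table, and TAC1 was not analysed. They were chosen by name, and each was followed as a level and as a share of positive nuclei in every animal, subclass and type, and as pairs within single nuclei. The nuclei came from the primary visual cortex (V1) of 2 adult male gray short-tailed opossums (Monodelphis domestica), 1.5 years old (animal 1) and 2 years old (animal 2), with no treatment or genetic change named in the labels. Tissue of both hemispheres was pooled within an animal, nuclei stained with Draq5 were sorted, and 2 libraries were made from each suspension (1A and 1B, 2A and 2B), so that the animal, not the library or the nucleus, was the replicate (n = 2). One experimenter prepared 1 animal and another the other, so that animal, age and handling cannot be told apart.

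Neuropeptides are cut from longer precursor proteins, packed into dense-core vesicles and released to act on G protein-coupled receptors, often beside a fast transmitter such as GABA. In the cortex of placental mammals, somatostatin, vasoactive intestinal peptide and cholecystokinin mark largely separate sets of GABAergic interneurons, while neuropeptide Y is shared by several sets, among them rare long-range cells that also make nitric oxide. Dynorphin, corticotropin-releasing hormone and cholecystokinin are made by subsets of excitatory neurons as well.

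The deposited labels covered 32764 of 36558 barcodes, of which 4347 were GABAergic nuclei (subclasses Pvalb, Sst, Lamp5, Vip and Frem1), 20150 glutamatergic and 8267 non-neuronal. Libraries held 55625042 to 69706055 UMIs (unique molecular identifiers, each 1 counted RNA molecule), with a median of 5834 to 7040 UMIs per labelled nucleus, and any 2 libraries shared 13 to 26 barcodes. Subclass names matched the opossum genes they refer to for SST, VIP and LAMP5, each highest in its namesake. FREM1 was instead highest in Lamp5, at 59.0 and 76.8 CPM (the UMIs of a gene in a group of nuclei, scaled to the same UMI total for every group) in animals 1 and 2, and PVALB was not analysed here. Labels were made by clustering the same counts, so the tests below are no independent test of the subclasses. They set a difference against the spread between 2 animals, pooled over all subclasses or types of a fit. An exact interval on a share covers counting error only.

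**Figure D1:**
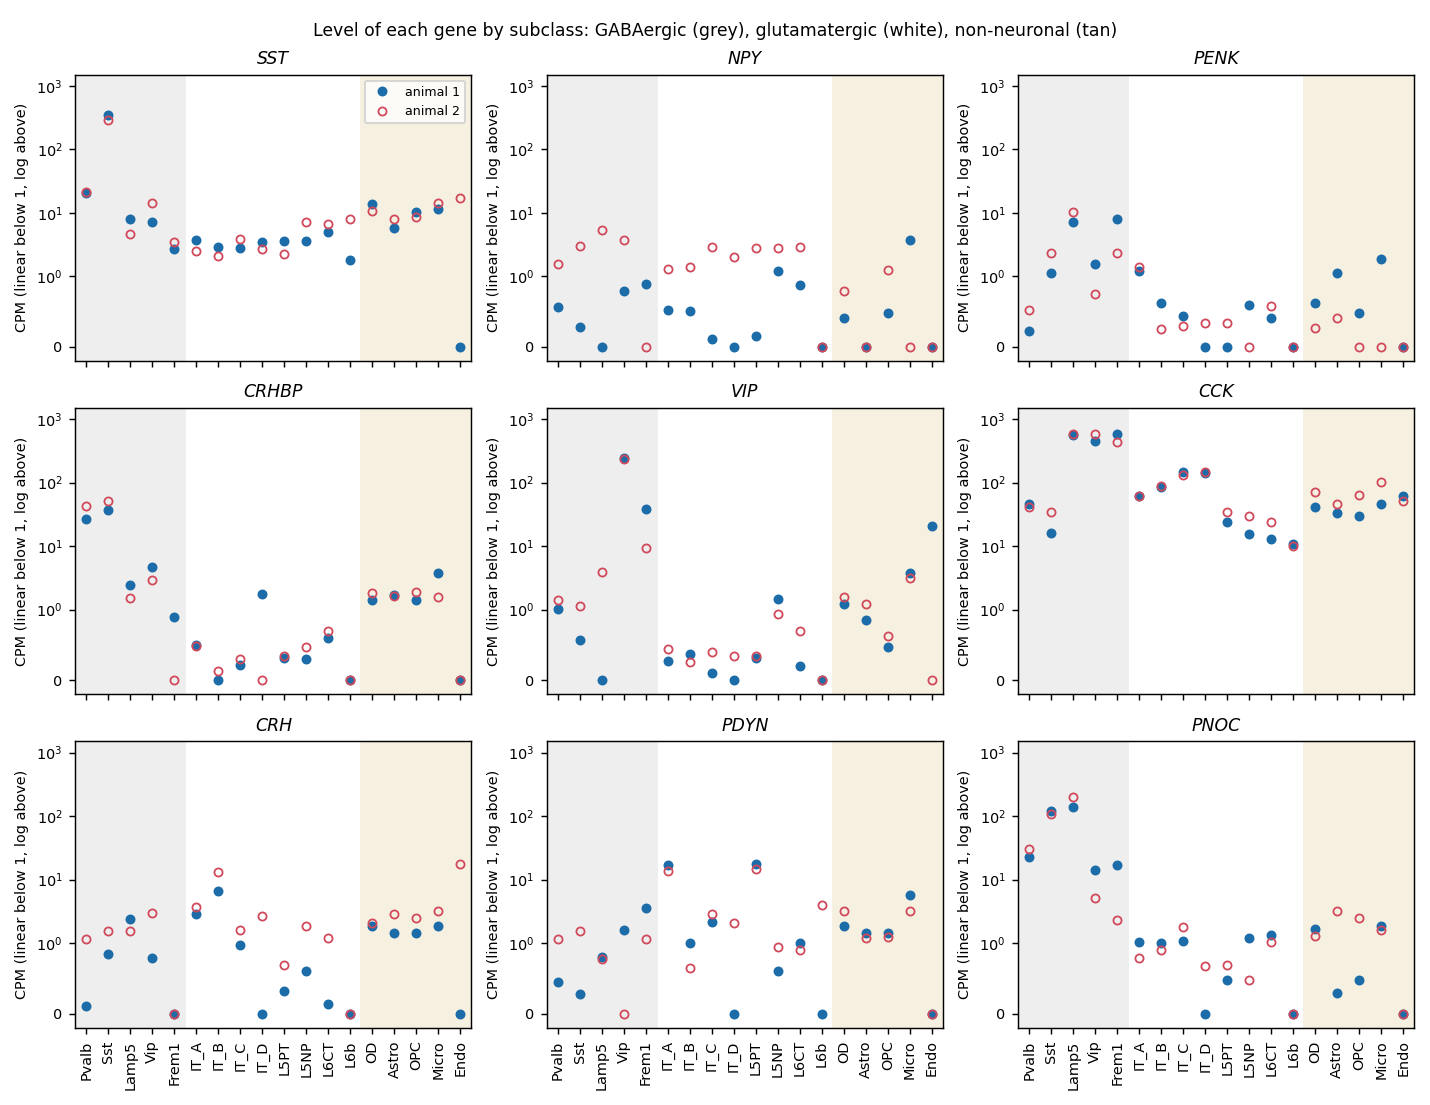
Level in CPM (vertical axis, linear below 1 and logarithmic above) of each of the 9 genes in 18 subclasses, with 1 point per animal. SST and VIP stood out in 1 subclass each, CCK in Lamp5, Vip and Frem1, CRHBP in Sst and Pvalb, and PNOC in Lamp5 and Sst, whereas NPY did not pass 5.43 CPM in any labelled subclass. Endothelial points rest on 0 or 1 UMI for every gene but CCK.

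SST encodes somatostatin, a peptide that dampens its target neurons. In Sst nuclei it stood at 350.3 CPM in animal 1 and 291 CPM in animal 2 (320.9 ± 41.6, SD, n = 2), and the next subclass, Pvalb, at 20.3 and 21.5 CPM. The 2 subclasses did not overlap, with a 15.3-fold ratio of their means. Against the mean log2 level of the other 4 GABAergic subclasses, SST was higher in Sst by 5.33 (SE 0.19, adjusted p = 1.64e-14, edgeR's quasi-likelihood test with Benjamini-Hochberg adjustment over 16156 genes).

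Many Sst nuclei had no SST molecule. At least 1 UMI was found in 56.8% of 539 Sst nuclei of animal 1 (exact 95% interval 52.5 to 61.0%) and 42.8% of 481 of animal 2 (38.4 to 47.4%), intervals that did not overlap. In type Sst_2 only 21 of 106 and 41 of 202 nuclei were positive. That type made up a larger part of the Sst nuclei in animal 2, for which these shares were not adjusted. Positive nuclei were deeper, with a median of 7102 against 5306 UMIs in animal 1 and 6476.5 against 3551 in animal 2. With every nucleus thinned to 2000 UMIs, shallower nuclei left out, the shares were 37.6 and 29.0%. In oligodendrocytes, which should lack the gene, SST was seen in 2.94 and 2.15% of nuclei, at a median of 1924 and 1909 UMIs, and in 2.21 and 1.98% after thinning. After thinning, the Frem1 shares (0.633 and 1.61%) lay below that background, and the glutamatergic ones ran from 0 to 3.77%, the highest in L6b of animal 2 with 53 nuclei. The SST of the Sst subclass was also unevenly held: the 10% of its nuclei richest in it carried 59.4 and 68.7% of its SST UMIs, with up to 43 and 45 UMIs in 1 nucleus.

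CRHBP encodes a secreted protein that binds corticotropin-releasing hormone and keeps it from its receptors. It reached 37.5 and 52.1 CPM in Sst, and 26.5 and 43.2 CPM in Pvalb. Sst was the higher of them within each animal, but the ranges over the animals overlapped and the difference was not tested, while no other subclass passed 4.74 CPM. Positive nuclei made up 16.7 and 17.3% of Sst nuclei and 13.5 and 20.3% of Pvalb nuclei, against 0.307 and 0.396% of oligodendrocytes. The oligodendrocytes were shallower (median 1924 and 1909 UMIs), and after thinning the Sst shares were 6.79 and 8.54%. Pvalb nuclei were more numerous, and 44.3% of the CRHBP UMIs of all 35079 nuclei with a deposited label, left-out clusters included, lay in Pvalb and 21.2% in Sst. CRHBP was called higher in each of them against the mean of the other GABAergic subclasses, by 3.73 (SE 0.32, adjusted p = 1.98e-08) in Sst and 3.30 (SE 0.32, adjusted p = 9.68e-08) in Pvalb on the log2 scale. In Frem1 a single CRHBP UMI was seen in animal 1 and 0 in animal 2.

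PNOC is the precursor of nociceptin, the ligand of the opioid-like receptor OPRL1. Its level was 138 and 197 CPM in Lamp5, 118 and 106 CPM in Sst, 22.3 and 30.3 CPM in Pvalb, and at most 16.9 CPM elsewhere. These 3 subclasses did not overlap with one another. At least 1 UMI was present in 51.8 and 56.4% of Lamp5 nuclei and 39.7 and 32.8% of Sst nuclei, against 0.307 and 0.283% of oligodendrocytes. The oligodendrocytes were shallower (median 1924 and 1909 UMIs), and after thinning the Lamp5 shares were 19.8 and 33.5%. PNOC was called higher in Lamp5 (log2 difference 2.87, SE 0.23, adjusted p = 1.29e-08) and in Sst (2.14, SE 0.23, adjusted p = 5.32e-07), and lower in Vip (-2.35, SE 0.38, adjusted p = 1.39e-04) and Frem1 (-2.21, SE 0.40, adjusted p = 5.28e-04).

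VIP encodes vasoactive intestinal peptide, and 72.8% of its UMIs in those 35079 nuclei lay in the Vip subclass. There it stood at 242 and 239 CPM, with 59.9 and 56.4% of nuclei positive, and 36.2 and 33.5% after thinning. Of oligodendrocytes, which were shallower, 0.263 and 0.340% were positive before thinning. Frem1 followed at 38.3 CPM in animal 1 and 9.22 CPM in animal 2, which rest on 43 and 8 UMIs. All other subclasses lay at or under 3.88 CPM except 1 UMI in endothelial nuclei of animal 1. The log2 difference of Vip from the other GABAergic subclasses was 6.45 (SE 0.31, adjusted p = 7.40e-12). Frem1 was called higher too (2.35, SE 0.46, adjusted p = 0.00119), although in animal 2 its VIP share of 5.04% rested on few UMIs.

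CCK encodes cholecystokinin, a peptide of both inhibitory and excitatory cortical cells. It was highest in Lamp5 (564 and 587 CPM), Frem1 (591 and 441 CPM) and Vip (449 and 578 CPM), 3 subclasses whose ranges overlapped. Positive nuclei reached 90.5 and 84.2% in Lamp5, 79.5 and 79.9% in Frem1 and 75.2 and 72.0% in Vip. Pvalb (45.2 and 41.3 CPM) and Sst (16.1 and 34.2 CPM) had no more CCK than oligodendrocytes (41.7 and 71.5 CPM) in at least 1 animal. After thinning, CCK was seen in 8.497 and 9.13% of Pvalb, 3.18 and 6.34% of Sst and 7.22 and 11.5% of oligodendrocyte nuclei. Sst thus lay below oligodendrocytes in both animals, and Pvalb above them in animal 1 only. Glutamatergic L6b nuclei held still less CCK (10.9 and 9.92 CPM), so the oligodendrocyte level is no floor for neurons. Whether Sst and Pvalb nuclei held CCK above a background of their own was not settled. Of 2146 Pvalb nuclei 48 held 3 or more CCK UMIs (33 and 15 per animal), against 1 of 1020 Sst and 1 of 4047 oligodendrocyte nuclei, where Pvalb nuclei were the deeper (median 7195 and 6987 against 1924 and 1909 UMIs). CCK was called higher in Lamp5 (log2 difference 2.17, SE 0.19), Frem1 (1.92, SE 0.20) and Vip (1.90, SE 0.19), with adjusted p of 2.69e-08, 3.80e-07 and 2.47e-07. It was called lower in Sst (-3.51, SE 0.29, adjusted p = 5.16e-09) and Pvalb (-2.48, SE 0.25, adjusted p = 1.10e-07).

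Counted over all 9 genes, 5 were called in the Sst contrast, against 17.8% of all genes tested. Of these, SST, CRHBP and PNOC were higher (11% of all genes) and CCK and VIP lower (6.8%). In Lamp5 4 were called (13.7% of all genes), with CCK, PNOC and PENK higher (7.9%) and SST lower (5.78%). In Vip 3 were called (13.1%), VIP and CCK higher (7.11%) and PNOC lower (5.95%). In Frem1 5 were called (11.1%), VIP and CCK higher (6.22%) and SST, CRHBP and PNOC lower (4.87%). In Pvalb 4 were called (24.5%), CRHBP higher (14.7%) and CCK, VIP and PENK lower (9.77%). Each contrast sets a subclass against the mean log2 level of the other 4, which is how CRHBP could be called higher in both Sst and Pvalb. NPY, CRH and PDYN were called in none of the 5. With 53 nuclei per subclass and animal, the calls of VIP in Sst and Pvalb, SST in Lamp5 and SST and CRHBP in Frem1 were lost, and PENK was not tested.

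The low genes bear a closer look, as 2 of them, NPY and PENK, are common interneuron markers. NPY encodes neuropeptide Y. In labelled GABAergic nuclei it stood at 0.501 CPM in animal 1 and 2.32 CPM in animal 2, and no such nucleus held more than 1. Its highest subclass by mean was Lamp5, with 0 UMIs in 168 nuclei of animal 1, which allows up to 1.79% of nuclei with a UMI at this depth and sets no limit on nuclei expressing it, and 7 UMIs in 202 nuclei of animal 2 (5.43 CPM). Sst held 0.282 and 3.04 CPM. Glutamatergic nuclei had 0.530 and 1.84 CPM, so the GABAergic level was not set apart from theirs (log2 difference 0.67, SE 1.58, adjusted p = 0.804). NPY was higher in animal 2 than in animal 1 in 7 of the 8 glutamatergic subclasses and 4 of the 5 GABAergic ones. With 1 animal each, age, handling and library cannot be told apart there.

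PENK is the precursor of the enkephalins, ligands of the opioid receptors OPRD1 and OPRM1. Lamp5 stood at 7.27 and 10.1 CPM and Frem1 at 8.03 and 2.31 CPM, resting on 9 and 13 UMIs and on 9 and 2 UMIs. These ranges overlapped. PENK was called higher in Lamp5 (log2 difference 2.64, SE 0.53, adjusted p = 0.00128) and lower in Pvalb, where 2 and 4 UMIs were found (-2.97, SE 0.66, adjusted p = 0.00188). Of the same 35079 nuclei, 20 held 3 or more PENK UMIs, and 8 of them were IT_A nuclei, 1 in animal 1 and 7 in animal 2, all of types IT_A_3 and IT_A_4. Library 2A alone gave 6 of these 8, and 2 were left without it. Another 9 came from clusters left out as GABAergic doublets, all in animal 1, and 2 from clusters left out as ambiguous GABAergic, both in library 2A. The remaining nucleus was labelled Frem1.

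CRH, PDYN and part of CCK belonged to glutamatergic nuclei. PDYN is the precursor of the dynorphins, ligands of the receptor OPRK1. It reached 17.7 and 14.8 CPM in L5PT (pyramidal tract neurons) and 16.8 and 13.5 CPM in IT_A (intratelencephalic neurons), which overlapped over the animals though L5PT was the higher in each, while every other neuronal subclass lay at or under 3.97 CPM. Within IT_A, type IT_A_3 had 31.0 and 28.7 CPM and IT_A_4 23.0 and 16.3 CPM, against 8.10 to 13.6 CPM in the other 3 types. CRH, the stress hormone precursor that CRHBP binds, was highest among neurons in IT_B, at 6.52 and 13.4 CPM, with 5.52 and 9.71% of nuclei positive. IT_A followed at 2.90 and 3.66 CPM and did not overlap with IT_B. CRH was higher in animal 2 in 7 of the 8 glutamatergic subclasses. The GABAergic values (0 to 2.97 CPM) lay within or below those of non-neuronal nuclei without endothelial ones (1.42 to 3.19 CPM). CRH in GABAergic nuclei was thus not above the non-neuronal level. CCK was graded over the glutamatergic subclasses, from 148 and 132 CPM in IT_C and 143 and 148 CPM in IT_D through 84.8 and 88.8 CPM in IT_B and 61.0 and 61.6 CPM in IT_A to 10.9 and 9.92 CPM in L6b. IT_B, IT_C and IT_D lay above oligodendrocytes (41.7 and 71.5 CPM) in each animal, and IT_A in animal 1 but not animal 2. L5PT, L5NP, L6CT and L6b (9.92 to 34.4 CPM) lay above them in neither. The oligodendrocyte level is no floor for neurons, so a value below it does not mean that CCK was absent. In L5PT 16 and 10 nuclei held 3 or more CCK UMIs all the same, 26 of 1206, against 1 of 4047 oligodendrocytes, which were shallower (median 1924 and 1909 against 10712.5 and 8142.5 UMIs).

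A test over the 8 glutamatergic subclasses, added after these values were seen, called 4 of the 9 genes (40% of all genes tested): CCK (adjusted p = 7.03e-09), PDYN (8.16e-09), CRH (3.03e-04) and PENK (0.0395). With the animal as a replicate block 5 were called, SST added, where 56.8% of all genes were. Between the classes, 7 of the 9 genes were called, where 42.8% of all genes were. PNOC, VIP, CRHBP, PENK, SST and CCK were higher in the mean GABAergic subclass (20.8% of all genes) and PDYN lower (22%). With 53 nuclei per subclass and animal the calls of VIP and CRHBP were lost, and PENK and PDYN were not tested. PNOC differed by 5.88 (SE 0.32, adjusted p = 3.07e-12), from a pooled 51.5 and 56.0 CPM in GABAergic against 1.04 and 0.911 CPM in glutamatergic nuclei. PDYN differed by -1.36 (SE 0.40, adjusted p = 0.00931) between the means of the subclasses' log2 levels, which weight each subclass alike. Pooled over nuclei, it stood at 0.751 and 1.09 CPM in GABAergic and 9.66 and 8.80 CPM in glutamatergic nuclei, a wider gap, with 73.9% of its UMIs in IT_A alone. NPY was not called (adjusted p = 0.804), and no fold is given for CRH, whose standard error was not usable. Frem1 and L6b held 0 CRH UMIs in both animals.

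**Figure D2:**
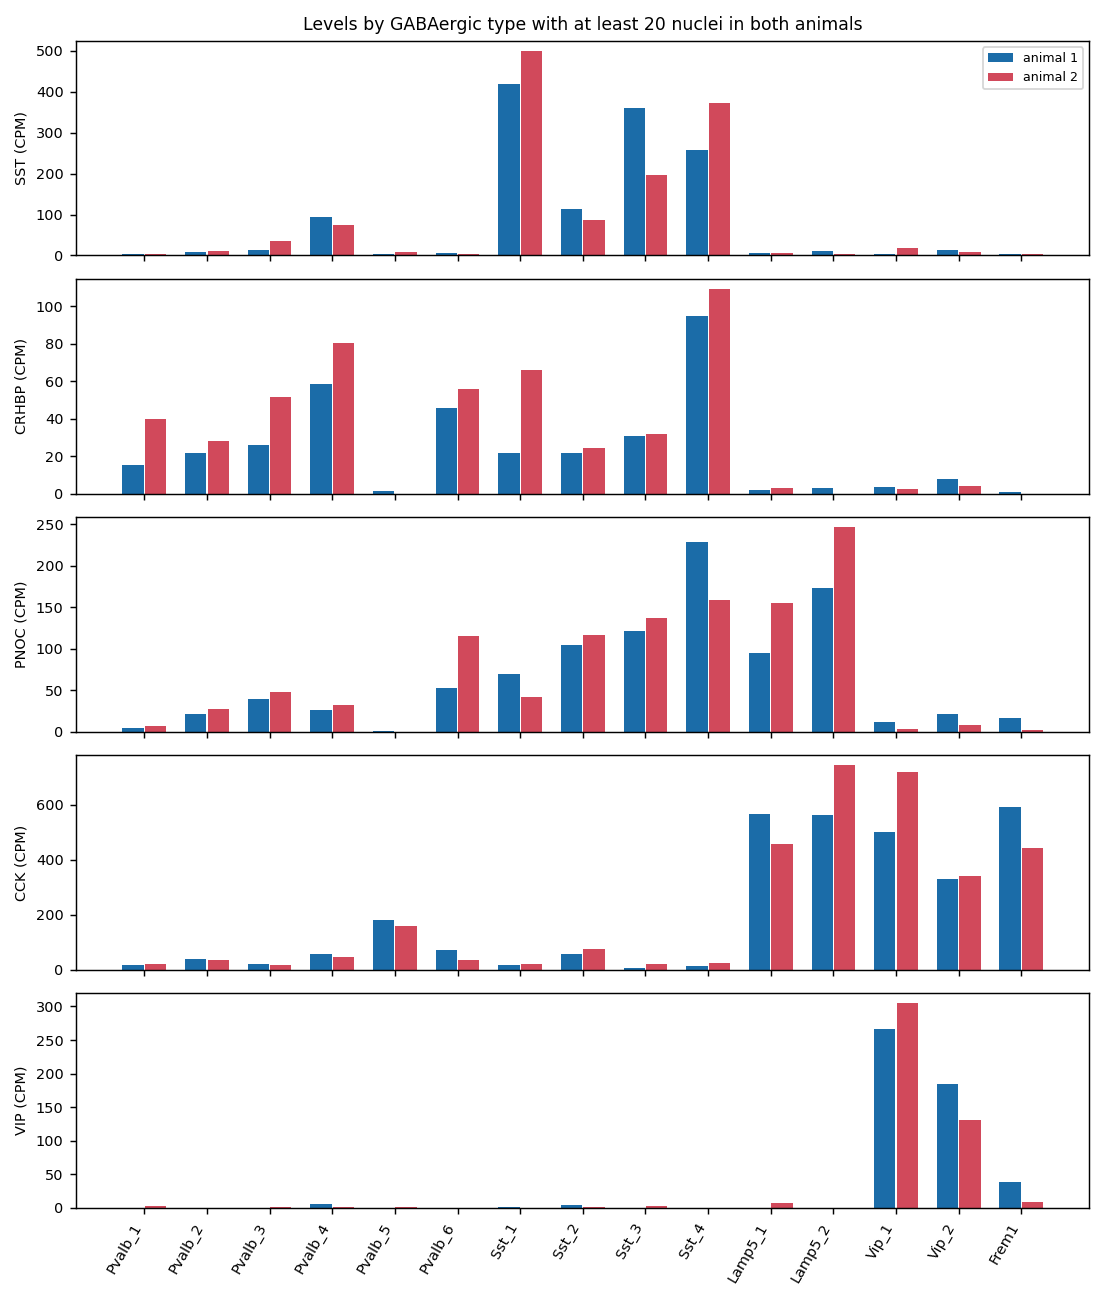
Level in CPM (vertical axis, linear from 0) of SST, CRHBP, PNOC, CCK and VIP in the 15 GABAergic types with at least 20 nuclei in each animal, with 1 bar per animal. Types of 1 subclass differed: SST was low in Sst_2, CRHBP was highest in Sst_4 and Pvalb_4 and nearly absent from Pvalb_5, and CCK was high in Pvalb_5.

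The subclasses divided further into types, and 5 of the 9 genes had enough counts to be tested there (NPY, PENK, CRH and PDYN did not pass the low-count filter). Among the 4 Sst types, SST, CRHBP, PNOC and CCK were called (18.7% of all genes tested were). SST was 419 and 499.8 CPM in Sst_1, 359.7 and 198 CPM in Sst_3, 257 and 372 CPM in Sst_4 and 114 and 86.7 CPM in Sst_2 (adjusted p = 7.54e-06). Sst_2 lay below the other 3 types in both animals, while the ranges of Sst_3 and Sst_4 overlapped. PNOC ran otherwise, at 228 and 159 CPM in Sst_4 and 70.1 and 41.5 CPM in Sst_1 (adjusted p = 0.00101). CRHBP was 94.99 and 109 CPM in Sst_4 and at most 66.0 CPM in the others (adjusted p = 0.00513). CCK was 56.9 and 75.3 CPM in Sst_2 and 7.74 to 26.0 CPM in the other 3 (adjusted p = 2.86e-04). Oligodendrocytes held 41.7 and 71.5 CPM, below Sst_2 and above the other 3 types in each animal, and the share of CCK-positive nuclei in Sst_2 (11.3 and 18.3%) was above that in Sst_1 (11.9 and 14.4%) in animal 2 only.

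Among the 6 Pvalb types the same 4 genes were called, where 31.3% of all genes were. SST stood at 94.6 and 73.3 CPM in Pvalb_4 and 13.4 and 36.2 CPM in Pvalb_3, with the other 4 types at or under 9.84 CPM (adjusted p = 3.79e-10). In Pvalb_4, 19.6 and 23.3% of nuclei held SST, and 11 and 6 Pvalb nuclei of the 2 animals had 5 or more UMIs. CRHBP was highest in Pvalb_4 as well, at 58.3 and 80.6 CPM, and was nearly absent from Pvalb_5, with 1 UMI in 110 nuclei and 0 in 99 (adjusted p = 2.04e-05). PNOC had the same low point, with 1 and 0 UMIs in Pvalb_5, and was highest in Pvalb_6, at 53.1 and 115 CPM (adjusted p = 2.37e-08). CCK ran the other way: Pvalb_5 held 180.1 and 161 CPM, with 56.4 and 56.6% of nuclei positive, and the other types at most 72.0 CPM (adjusted p = 3.55e-11).

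In the 2 Vip types, CCK was called (2.49% of all genes, with 1.3% lower in Vip_2 and 1.19% higher), with 500 and 721 CPM in Vip_1 and 331 and 340.1 CPM in Vip_2 (log2 difference of Vip_2 from Vip_1 -0.85, SE 0.20, adjusted p = 0.0134). VIP was 266 and 305 CPM in Vip_1 and 184 and 131 CPM in Vip_2, values that did not overlap but missed the threshold (-0.87, SE 0.33, adjusted p = 0.198). With the animal as a replicate block, VIP was called as well, so that 2 genes were, with 4.36% of all genes called (2.38% lower). In the 2 Lamp5 types none of the 5 genes was called by edgeR (1.14% of all genes, 0.493% higher in Lamp5_2 and 0.642% lower) or by DESeq2, and 1 of them, PNOC, had an unadjusted p under 0.05 by edgeR. PNOC was there 95.4 and 155 CPM in Lamp5_1 and 173 and 247 CPM in Lamp5_2 (adjusted p = 0.434).

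Whether single nuclei held several of these genes at once was asked for the 36 pairs in each of the 13 neuronal subclasses, by setting the number of nuclei with both genes against the number their 2 shares would give. In 34 combinations of a pair and a subclass at least 5 such nuclei were expected in each animal. The ratio of observed to expected was above 1 in both animals in 18 of them and below 1 in both in 9. Positive nuclei had the higher median depth for most of these genes. Within 5 equal groups of nuclei by UMI total, the counts were 12 and 10, and within types 16 and 5. These ratios are descriptions without a test.

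**Figure D3:**
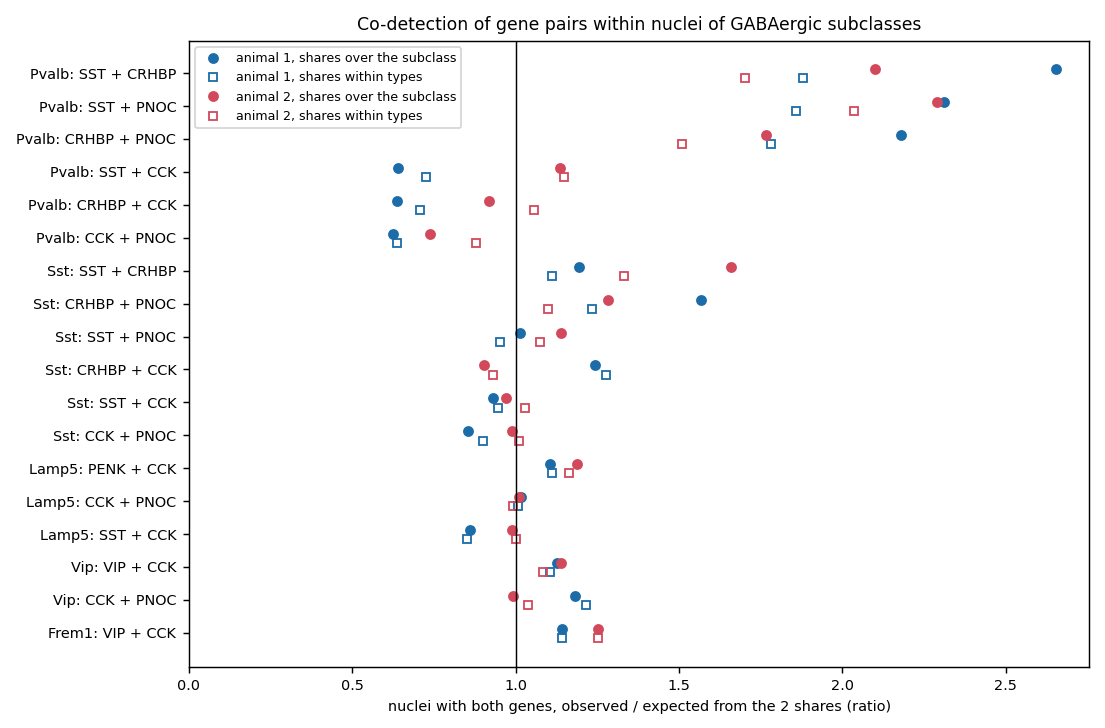
Ratio of observed to expected nuclei with both genes (horizontal axis, linear) for the 18 reported pairs in GABAergic subclasses, per animal, with expected numbers from shares over the subclass (filled circles) or within types (open squares). The vertical line marks 1. The pairs of SST, CRHBP and PNOC in Pvalb lay at 1.77 to 2.66 over the subclass and at 1.51 to 2.04 within types.

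Of the 34 combinations, the 3 pairs of SST, CRHBP and PNOC in Pvalb nuclei had the highest mean ratios. SST and CRHBP were found together in 29 nuclei of animal 1 where 10.9 were expected (ratio 2.66) and in 38 of animal 2 where 18.1 were expected (2.10). SST and PNOC shared 22 and 27 nuclei, at ratios of 2.31 and 2.29, and CRHBP and PNOC 40 and 47 nuclei, at 2.18 and 1.77. Within types, the ratios of SST with CRHBP were lower, at 1.88 and 1.70, and still above 1. They were higher with 2 UMIs asked for (7.89 and 3.56, from 9 and 7 nuclei) and after thinning (5.31 and 3.14, from 10 nuclei each), with few nuclei expected. Within depth groups they were 2.76 and 2.16, and SST-positive Pvalb nuclei were deeper in animal 2 but not in animal 1 (median 6553 against 7278.5 UMIs in animal 1 and 7177 against 6959 in animal 2). CCK went the other way with PNOC in Pvalb, at ratios of 0.625 and 0.738.

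In the Sst subclass SST and CRHBP met in 61 and 59 nuclei, at ratios of 1.19 and 1.66, and within depth groups at 1.04 and 1.31. SST and PNOC shared 123 and 77 nuclei, at 1.01 and 1.14, but within depth groups at 0.918 and 0.974, below 1 in both animals. CRHBP and PNOC met in 56 and 35 nuclei, at 1.57 and 1.28, within depth groups at 1.36 and 1.06, with 2 UMIs asked for at 2.31 and 2.69, and after thinning (7 and 5 nuclei) at 1.06 and 0.813. VIP and CCK occurred together in 50.8 and 46.2% of Vip nuclei, at 1.13 and 1.14. CCK and PNOC occurred together in 47.6 and 48.0% of Lamp5 nuclei, at 1.02 and 1.01.

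Over all GABAergic nuclei SST and VIP were rarely found in 1 nucleus: 5 nuclei of animal 1 and 2 of animal 2 held both, where 30.8 and 25.3 were expected from their shares (ratios 0.162 and 0.0790). CRHBP and VIP gave 3 and 4 nuclei (0.156 and 0.169), and SST and CCK 55 and 67 nuclei (0.402 and 0.582). With the expected numbers taken within types, the ratios were 0.798 and 0.420 for SST with VIP, 0.933 and 1.02 for CRHBP with VIP, and 0.901 and 1.08 for SST with CCK.

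The nuclei richest in NPY carried no subclass label. All 10 nuclei with 3 or more NPY UMIs, 7 in animal 1 and 3 in animal 2, belonged to the 276 nuclei that the deposited table left out as ambiguous non-neuronal. These 276 nuclei held 101 of the 387 NPY UMIs of the 35079 nuclei (26.1%). They divided by NOS1, the gene for neuronal nitric oxide synthase: 26 and 17 of them had 5 or more NOS1 UMIs, a rule set with earlier results known. NPY in these nuclei was 298 and 326 CPM, against 9.51 and 7.74 CPM in the other 112 and 121 and 0.282 and 3.04 CPM in labelled Sst nuclei. A fixed UMI limit also picks deeper nuclei: the median was 6843.5 and 7288 UMIs, against 1548.5 and 1809 in the other 112 and 121. The 5 and 2 labelled GABAergic nuclei that passed the same NOS1 limit held no NPY or SST UMI, but their NOS1 level was lower, at 590.0 and 717 CPM against 3421 and 3234 CPM.

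The same nuclei were rich in SST and CRHBP. SST stood at 809.9 and 1045 CPM, with 76.9 and 76.5% of nuclei positive. CRHBP stood at 711 and 749.9 CPM, in 84.6 and 100% of nuclei, against 37.5 and 52.1 CPM in labelled Sst. PNOC was not seen in either animal, with a level of up to 16.5 and 22.7 CPM allowed by 0 UMIs, below the 118 and 106 CPM of Sst. PENK, VIP and CRH were likewise at 0 UMIs in both animals. Libraries differed: SST was 599.7 and 982 CPM in 1A and 1B but 1887 and 263 CPM in 2A and 2B, from 7 and 10 nuclei, and NPY 598 and 73.1 CPM in 2A and 2B. NPY and CRHBP met in 14 nuclei of animal 1 and 8 of animal 2, where 12.7 and 8 were expected, since most or all of these nuclei held CRHBP. The GABA-synthesis gene GAD1 reached 159.8 and 174 CPM there, against 297 and 317 CPM in Sst. GAD2, the other such gene, reached 44.1 and 68.2 CPM, against 432 and 416 CPM in Sst, and SLC32A1, the vesicular GABA transporter, 2 UMIs in each animal.

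**Figure D4:**
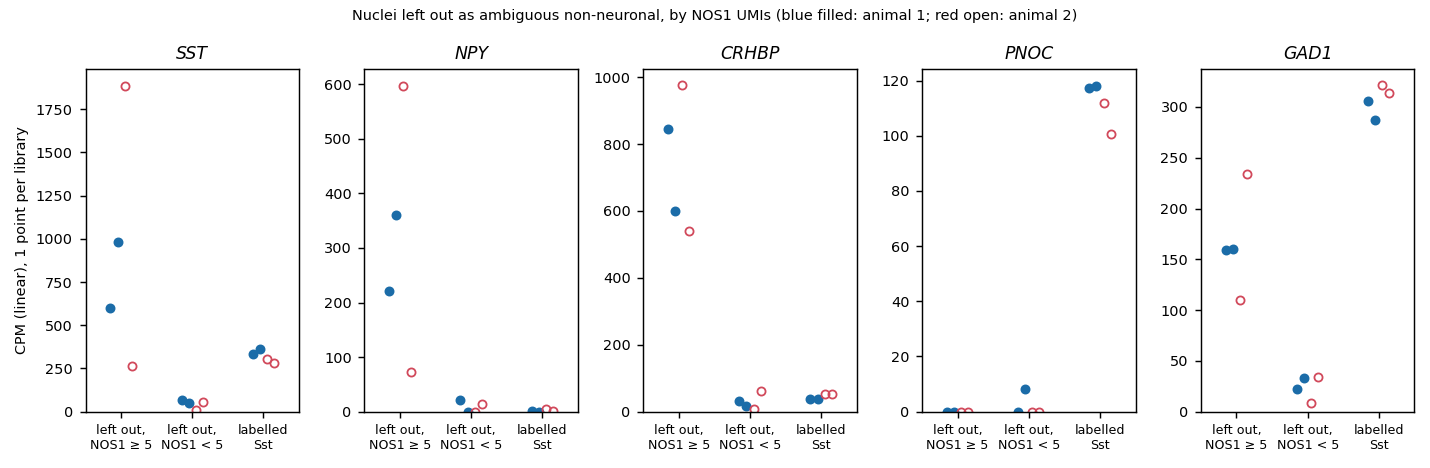
Level in CPM (vertical axes, linear from 0, each with its own range) of SST, NPY, CRHBP, PNOC and GAD1 in left-out ambiguous non-neuronal nuclei with at least 5 or under 5 NOS1 UMIs and in labelled Sst nuclei, with 1 point per library. NPY and CRHBP were above the labelled Sst level in all 4 libraries of the NOS1 nuclei, while PNOC was at 0 and SST in library 2B fell below the Sst level.

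Peptides need processing enzymes and vesicle proteins, and the 10 of 13 listed genes that had a symbol were tested in the subclass contrasts. In Sst 6 were called higher and 1 lower, where 11% and 6.8% of all genes were (median log2 difference 0.43, against 0.04 over all genes). The granule proteins SCG2 and VGF were higher by 3.20 and 1.51, the vesicle-priming gene CADPS2 by 2.88, and the convertase PCSK1 lower by 2.29 (a log2 difference of -2.29). In Vip only PCSK2, the other prohormone convertase, was higher (3.08, SE 0.08), at 1326 and 1352 CPM, with CADPS and VGF lower (7.11% of all genes were higher and 5.95% lower). Lamp5 had more PCSK1 (100.1 and 116 CPM) and PAM, which amidates peptides, and less PCSK2, CPE, SCG2 and CADPS2 (7.9% and 5.78% of all genes). Frem1 had 4 higher, PCSK1 and PCSK2 among them, and 4 lower (6.22% and 4.87% of all genes). In Pvalb 4 were higher and 4 lower (14.7% and 9.77% of all genes), with CADPS, a vesicle-priming gene, higher (2282 and 2580 CPM, log2 difference 0.60) and PCSK2 lower (-2.92, SE 0.11). Between the classes, 7 were called (42.8% of all genes were) and 6 of them were lower in GABAergic nuclei, VGF alone being higher (median -0.39, against 0.01 over all genes).

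Of 22 receptor genes for these peptides 16 had a symbol and 14 were tested. In Sst 5 were called higher, SSTR1, OPRL1, OPRM1, OPRD1 and TACR3, and 2 lower, SSTR4 and CCKBR, against 11% and 6.8% of all genes (median 0.99). Lamp5 was high in OPRK1, the dynorphin receptor (122 and 80.6 CPM, log2 difference 2.46), and in SSTR4 (50.1 and 45.7 CPM, 3.16) and CCKBR (39.6 and 36.4 CPM, 1.67), with OPRM1 lower (7.9% and 5.78% of all genes). Pvalb led in the enkephalin receptor OPRD1, at 92.3 and 89.97 CPM (3.24), with TACR3 also higher and SSTR4 and CCKBR lower, 4 of 14 receptors against 24.5% of all genes (14.7% higher and 9.77% lower). Vip had more OPRM1 (83.7 and 67.6 CPM, 3.28), SSTR2 (2.37 and 3.71 CPM, few counts), SSTR4 and TACR3, and less OPRK1 and OPRD1, against 7.11% and 5.95% of all genes. Frem1 had 4 higher (SSTR2, SSTR4, SSTR5 and CCKBR) and 2 lower (OPRD1 and TACR3), against 6.22% and 4.87% of all genes, some on few counts. The VIP receptors VIPR1 and VIPR2 were lower in GABAergic than glutamatergic subclasses (-5.29 and -3.41), with VIPR2 at 350.2 and 401 CPM in IT_D. Between the classes 7 of the 14 receptors were called, near the 42.8% of all genes, SSTR4 and OPRK1 higher and OPRL1, SSTR2 and CCKBR lower beside the VIP receptors (median -0.38).

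Among 32 other neuropeptide genes 17 had a symbol, and 5 had enough counts for the subclass test. GHRH, the precursor of growth hormone-releasing hormone, was higher in Lamp5 (15.3 and 14.7 CPM, log2 difference 2.07) and Vip (1.81) and lower in Sst (-2.57) and Pvalb (-1.35), and it was the only one of the 5 called in any of those contrasts, where 13.7, 13.1, 17.8 and 24.5% of all genes were. Between the classes GHRH was higher in GABAergic subclasses and HCRT, ADCYAP1 and NTS lower, where 20.8% and 22% of all genes were. NTS, the neurotensin gene, stood at 112 and 106 CPM in L5NP, and ADCYAP1, which encodes the peptide PACAP, at 21.8 and 13.2 CPM in IT_B.

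The genes whose levels ran most like those of a member were sought over the 15 GABAergic types, among 6033 genes with a symbol and at least 20 CPM, by the lower of the 2 animals' Pearson r on log2(CPM + 1). Types of an animal share its libraries, and the values are descriptions. Nearest to SST was ELAPOR1 (r 0.900), followed by SCG2 (0.866) and VEGFC (0.863), and nearest to CRHBP were AXIN2 (0.917), ST3GAL1 (0.907) and SPON1 (0.899). VIP was followed by CALB2 (0.916), DKK2 (0.895) and TEX47 (0.884), CCK by KCNT2 (0.943), IGSF11 (0.921) and NFIB (0.917), and PNOC by RPS6KA2 (0.840), NELL2 (0.800) and ZFAT (0.770). For comparison, each member against itself in the other animal gave 0.936 for SST, 0.9502 for CRHBP, 0.875 for VIP, 0.967 for CCK and 0.927 for PNOC. NPY, PENK, CRH and PDYN stayed under 20 CPM in these types and were not compared.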

How the data were processed

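Whole-number UMI counts per gene and nucleus were used as the authors deposited them, from sorted nuclei of 2 opossums with 2 Chromium libraries each. Per the labels and methods, the authors aligned reads with Cell Ranger 6.1.1, introns included, to ASM229v1 with Ensembl genes extended at their ends, removed low-quality nuclei and clustered the rest. The authors' doublet score, a fraction, came from Scrublet, and the deposited calls made from it served to leave out called doublets in an alternative. Extended ends and intron reads decide which molecules reach a gene, and nuclear RNA need not follow peptide content.

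The counts of an animal's nuclei were summed per subclass or type and given as CPM. The sums were tested with edgeR 4.0.16 (R 4.3.3), using TMM factors, filterByExpr, quasi-likelihood F tests and a Benjamini-Hochberg threshold of 0.05, in 1 fit of 26 sums over 13 neuronal subclasses and 1 over 15 types. DESeq2 1.42.0 was an alternative. Python 3.11.15, numpy 2.4.6, scipy 1.17.1, pandas 2.3.3 and scikit-learn 1.9.0 did the rest, and scripts were tested on simulated data. The alternatives were other tools, filters, labels and thresholds, called doublets left out, equal numbers of nuclei, an animal block and each animal left out. Sums of 1 animal come from the same individual and so are paired: their deviations correlated at a median of 0.172 (0.0346 to 0.622 over 78 pairs of subclasses) and 0.116 (0.0463 to 0.296 over 105 pairs of types). Named genes are all members, up to 5 genes of each list with the highest GABAergic level, and the 3 genes most like a member. Other listed genes were named after their values were seen. The members and lists were chosen with earlier results of these data known. No coordinates or sequences were used here, since no genome of that build was at hand. P-values rest on the spread between 2 animals, pooled over all subclasses or types of a fit and shared in part over genes. They do not measure the spread of a gene within its own subclass.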

Additional observations from a re-analysis of the deposited data

Results flagged for a closer look

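In nuclei left out as ambiguous non-neuronal, 138 in each animal, 3 of the genes lay above the highest labelled subclass in the sum of each animal. SST averaged 391.2 CPM (405.8 and 376.7, against at most 350.3 and 291.4 in a labelled subclass), NPY 129 CPM (143 and 115, against at most 3.77 and 5.43) and CRHBP 310.6 CPM (342 and 279, against at most 37.5 and 52.1). Single libraries carried part of this. SST was 318 and 475 CPM in libraries 1A and 1B and 686 and 122 CPM in 2A and 2B, so without 1B or without 2A the SST level of that animal fell below its Sst subclass. NPY was 116 and 164 CPM in 1A and 1B and 215 and 32.7 CPM in 2A and 2B, and CRHBP 215 to 416 CPM over the 4 libraries, each above the labelled subclasses. The signal sits in data that no labelled comparison uses, and it was not tested, since these nuclei carry no subclass label.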

How the results depend on the processing

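With at least 2 UMIs asked for, SST was found in 27.1% of Sst nuclei, PENK in 1.83% of Lamp5 nuclei and CRHBP in 5.85% of Sst nuclei, and after thinning in 33.3, 2.68 and 7.67%, from 49.8, 4.06 and 17.0%. Leaving out 1 animal gave 42.8 to 56.8% for SST, and levels stayed within the spread of the animals in 40 of 43 repeats. Repeats without 1 animal could not leave that spread with n = 2, so only the others could show a shift. In Pvalb, the ratio of SST with CRHBP (2.38) was 5.73 with 2 UMIs, 4.23 thinned and 1.79 within types. That of SST with PNOC (2.30) was 5.02, 2.69 and 1.95, and 2.34 within depth groups, and that of CRHBP with PNOC (1.97) was 4.31, 2.30 and 1.65. SST with CRHBP in Sst (1.43) was 2.49 with 2 UMIs. Some ratios crossed 1: SST with CCK in Sst at 2 UMIs (1.15), SST with PNOC in Sst thinned (0.979) and within depth groups (0.946), CRHBP with PNOC in Sst thinned (0.938, from 1.43), CCK with PNOC in Lamp5 thinned (0.936), within depth groups (0.992) and within types (1.000), and VIP with CCK in Frem1 thinned (0.927, from 1.20). The depth and type settings were added after seeing the data.

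With 53 nuclei per subclass and animal, the genes called fell to 4 in Sst (VIP lost, 12.9% of all genes called), 3 in Frem1 (SST and CRHBP lost, 10.4%), 3 between the classes (VIP and CRHBP lost, 36.9%), 2 in Lamp5 (SST lost, 12.4%), 2 in Pvalb (VIP lost, 15.8%) and 1 among glutamatergic subclasses (33.3%), with NPY, PENK, CRH and PDYN no longer tested. Among Vip types 2 genes were called without the low-count filter (1.42% of all genes) and 2 with the replicate block (4.36% of all genes). The block changed 1 other call: SST was added among the glutamatergic subclasses, making 5, where 56.8% of all genes were called. SST was also added with DESeq2 (44.3% of all genes), without the filter (26.8%), without called doublets (40.6%) and with predicted labels (40.1%). With labels predicted from the other animal without peptide genes, 97.4% of GABAergic nuclei kept their subclass and every gene called in the 5 GABAergic contrasts was called again, with VIP in Lamp5 and SST in Vip added. VIP in Lamp5 was also called by DESeq2 and without the filter, and VIP among Pvalb types without the filter. Of 340 repeats of single calls, 327 stayed on their side of the threshold and 0 reversed. Leaving out an animal leaves 1 sum per subclass and allows no test.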
